A study of Homo sapiens with 6 samples.

Results

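The 10 genes described here are the 3 peroxisome proliferator-activated receptors (PPARA, PPARD and PPARG), their coactivator PPARGC1A, the fatty acid transporter CD36, and the entry enzymes of fatty acid oxidation CPT1A, CPT1C, CPT2, ACADVL and ACADM. They were taken by symbol from a table of 35238 gene symbols, and each had 1 row. The RNA came from HAP1, a near-haploid established line derived from human chronic myeloid leukaemia cells. There were 3 libraries of HAP1 cells labelled DEGS1 knockout and 3 of wildtype HAP1 cells, all untreated and collected 24 h after passage from medium with 5% serum. DEGS1 encodes the desaturase of the last step of ceramide synthesis, and the stated question is what its loss does to the cell. The labels do not say how many knockout clones were used or whether the replicates were separate cultures, so the p-values cover only differences among libraries, possibly technical ones.

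The PPARs are nuclear receptors that bind fatty acids and their derivatives, pair with an RXR and switch on genes of lipid handling. PPARA is best known from liver, PPARG from fat tissue, and PPARD is found in most tissues. Fatty acids enter the cell partly through CD36, are joined to coenzyme A, and pass the mitochondrial membranes as carnitine esters made by a CPT1 enzyme and turned back by CPT2. Acyl-CoA dehydrogenases then begin each round of beta-oxidation, ACADVL on very long chains and ACADM on medium ones.

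PPAR and RXR bind together to a direct repeat of AGGTCA with a single base between the copies. The 250 bases before the outermost annotated start are shown for PPARGC1A and CD36, the members that fell, for CROT, the pathway gene that fell most, and for CPT1A, a member at a high level in both genotypes. They are RefSeq sequences of GRCh38.p14, at chr4:24472906-24473155 (minus strand), chr7:80601957-80602206 (plus strand), chr7:87345414-87345663 (plus strand) and chr11:68844278-68844527 (minus strand). Capitals mark matches on either strand to the receptor core motif AGGTCA, the cAMP response element TGACGTCA, the CCAAT box, the GC box GGGCGG or the TATA box TATAAA. Those motifs were in 12.1%, 1.65%, 32%, 42.6% and 10.7% of all 35116 RefSeq windows of this length.
PPARGC1A: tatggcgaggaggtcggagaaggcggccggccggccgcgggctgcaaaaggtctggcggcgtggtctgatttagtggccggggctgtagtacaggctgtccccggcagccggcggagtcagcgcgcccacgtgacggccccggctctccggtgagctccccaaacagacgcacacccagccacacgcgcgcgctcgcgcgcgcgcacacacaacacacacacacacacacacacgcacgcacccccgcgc
CD36: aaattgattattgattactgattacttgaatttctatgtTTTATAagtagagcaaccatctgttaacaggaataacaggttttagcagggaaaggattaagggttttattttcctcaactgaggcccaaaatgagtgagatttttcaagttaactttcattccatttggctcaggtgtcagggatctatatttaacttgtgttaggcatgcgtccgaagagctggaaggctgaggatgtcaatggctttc
CROT: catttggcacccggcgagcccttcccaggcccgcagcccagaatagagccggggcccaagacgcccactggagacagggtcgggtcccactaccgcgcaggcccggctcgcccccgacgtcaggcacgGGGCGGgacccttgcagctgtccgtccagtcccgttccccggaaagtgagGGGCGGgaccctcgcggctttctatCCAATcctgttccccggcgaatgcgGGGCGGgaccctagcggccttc
CPT1A: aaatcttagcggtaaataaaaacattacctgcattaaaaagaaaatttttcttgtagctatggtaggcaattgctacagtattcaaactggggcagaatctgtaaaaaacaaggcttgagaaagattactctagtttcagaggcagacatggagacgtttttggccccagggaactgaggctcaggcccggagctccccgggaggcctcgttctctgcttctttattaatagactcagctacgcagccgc
The windows differ in composition. That of CD36 had 37.2% G and C and 2 CpG pairs, with a TATAAA match on the minus strand, and that of CROT 70.8% and 25, with 3 GC boxes and 1 CCAAT motif. The PPARGC1A window had 70.8% G and C, 33 CpG pairs and none of the motifs, and the CPT1A window 44.4%, 7 CpG pairs and none. The window before the other annotated start of PPARGC1A had 44% G and C and 4 CpG pairs. Several members have more than 1 annotated start, 25 in all, and the counts per gene do not show which start was used. AGGTCA was found in 3 of these 25 windows, all before starts of PPARG and 2 of them overlapping. The repeat AGGTCANAGGTCA was in none of the 25 and in 0.0171% of all windows. Only exact matches within the 250 bases were searched. With an exact repeat so rare in any window, its absence does not show that a member lacks a PPAR site. TGACGTCA was in none of the 25. AGGTCANAGGTCA contains AGGTCA, so these matches are counted in both.

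Total counts ran from 19389644 to 27659835 in the knockout libraries and from 17322756 to 28988522 in the wildtype libraries. Log2 fold changes set knockout over wildtype, 3 libraries a genotype, and carry a standard error (SE), and a gene was called at an adjusted p under 0.05 in edgeR's quasi-likelihood test over 16954 tested genes. Expression is in CPM, the counts scaled to a common library size. DEGS1 stood at 9.49, 6.88 and 10.4 CPM in the knockout libraries and at 105, 123 and 95.5 CPM in the wildtype libraries (log2 fold change -3.59, edgeR adjusted p = 3.07e-07, SE 0.17), so the labels and the targeted gene go together. Over all genes 256 were called higher and 500 lower, or 386 and 442 once trends with transcript length and GC content were removed per library. Wildtype replicate 2 stood apart: without it 3825 genes were called, 22.1% of those tested, in place of 756. The slope of its log2 CPM, relative to each gene's mean, on log2 transcript length was -0.0515, against 0.0599 and 0.0887 in wildtype replicates 1 and 3, and -0.0519 to -0.00782 in the knockout libraries. No gene defines HAP1. Among 8 genes of its leukaemic origin 3 were called, where 4.46% of all tested genes were called. TAL1 rose, and RUNX1 and HCLS1 fell. BCR, ABL1 and CD33 were read and not called, GATA1 was too low to test, and MPO had no count in any library. Their summed level was 97.9 to 106 CPM in the knockout and 80.5 to 86.2 CPM in wildtype, and their part in the results was not tested. Markers of fat cells were low, with FABP4, CIDEA and RETN at 0 in all 6 libraries and a summed level of 3.39 to 4.44 CPM for 8 markers in the knockout and 2.53 to 4.39 CPM in wildtype. ADIPOQ had 39 to 59 counts a library. PCK1 had 0.462, 2.18 and 0.62 CPM in the knockout libraries and 0.393, 0.334 and 0.321 CPM in the wildtype libraries, without overlap. None of the 8 markers was called.

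Of the 10 genes, 2 fell in the knockout, PPARGC1A and CD36, and none rose. The share of all tested genes called in either direction was 4.46%, and 2.95% were called lower. In 3 of the 10 (PPARGC1A, CD36 and PPARG) every knockout library lay below every wildtype library, as in 11.6% of all tested genes. None lay wholly above, as 9.24% of all tested genes did. The 10 genes had a median log2 fold change of -0.03, against -0.02 for all tested genes. Both calls were close to the threshold and were lost when most of the single libraries were left out. No member was called without knockout replicate 1, 2 or 3 or without wildtype replicate 1 or 3. Those fits called 380 to 625 genes over all, in place of 756. Without wildtype replicate 2, 3 members were called (PPARGC1A, CD36 and CPT2), in a fit that called 22.1% of all tested genes.

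**Figure D1:**
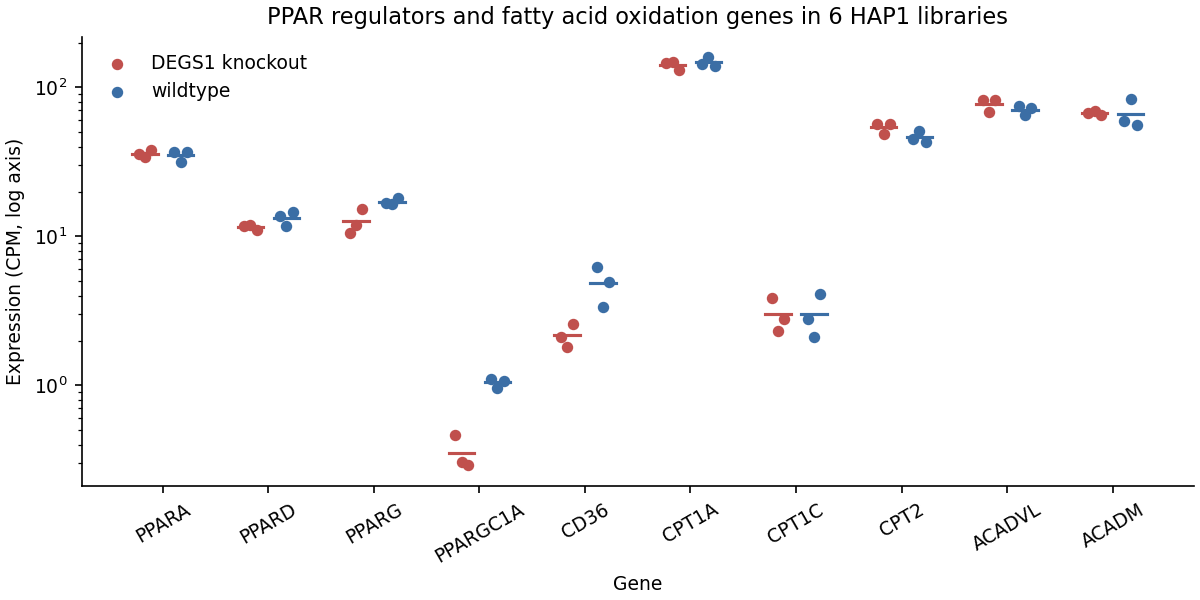
Expression of the 10 genes in CPM on a log axis, each point a library (3 DEGS1 knockout, 3 wildtype) and each bar the mean of 3. CPT1A lay between 132 and 148 CPM in the knockout and between 139 and 160 CPM in wildtype, while PPARGC1A and CD36 lay lower in the knockout than in wildtype in every library.

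Levels of different genes were compared per kilobase of the longest transcript in GENCODE release 29, as CPM per kb, which is approximate where shorter transcripts are used. ACADVL averaged 33.1 CPM per kb in the knockout and 30.2 in wildtype, CPT1A 27.0 in the knockout and 28.2 in wildtype, and ACADM 25.8 in the knockout and 25.3 in wildtype. The library ranges of these 3 overlapped, so their order is not resolved. CPT2 followed with 11.9 CPM per kb in the knockout and 10.2 in wildtype, and its libraries (9.44 to 12.5) lay apart from those of the genes above and below it. Among the receptors PPARG was highest per kb, at 6.21 in the knockout and 8.45 in wildtype. PPARA (3.58 in the knockout, 3.52 in wildtype) and PPARD (3.06 in the knockout, 3.54 in wildtype) overlapped. CPT1C stood at 1.02 CPM per kb in each genotype. CD36 was at 0.35 in the knockout and 0.783 in wildtype, and PPARGC1A was lowest at 0.0559 in the knockout and 0.166 in wildtype.

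PPARGC1A encodes PGC-1alpha, which binds PPARs and other nuclear receptors and drives genes of mitochondrial biogenesis and oxidation. It had 9, 8 and 8 counts in knockout replicates 1, 2 and 3, against 28, 26 and 20 counts in the wildtype libraries. These were 0.462, 0.306 and 0.292 CPM in the knockout libraries and 1.10, 0.966 and 1.07 CPM in the wildtype libraries. The groups did not overlap, and the lowest wildtype library was above the highest knockout library. PPARGC1A fell to 0.353 ± 0.0944 CPM in the knockout, against 1.05 ± 0.071 CPM in wildtype (SD, n = 3 each), or a log2 fold change of -1.58 (edgeR adjusted p = 0.0392, SE 0.38, 95% interval -2.41 to -0.74). In bulk RNA, fewer cells that express a gene and less RNA per cell cannot be told apart. The summed counts, 25 in the knockout and 74 in wildtype, gave a scaled ratio of 0.328 with an exact 95% interval of 0.20 to 0.523, for counting error only. PPARGC1A entered the test through its wildtype libraries, since 1 knockout library and 3 wildtype libraries reached the filter's minimum of 0.386 CPM. It was called without a filter (edgeR adjusted p = 0.031). It was not called without knockout replicate 1, 2 or 3 (edgeR adjusted p = 0.0893, 0.123 and 0.226), without wildtype replicate 1 or 3 (0.184 and 0.101), with library size only (0.0557) or in the DESeq2 Wald test (adjusted p = 0.0845). PPARGC1A had a log2 fold change between -1.77 and -1.45 in all 16 other settings that tested it.

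None of the receptors passed the test. PPARG, the receptor of fat cell formation, had 10.6, 11.9 and 15.3 CPM in the knockout libraries, against 16.9, 16.4 and 18.2 CPM in the wildtype libraries. The groups did not overlap, although knockout replicate 3 came close to wildtype. The log2 fold change was -0.44 (edgeR adjusted p = 0.179, SE 0.16, 95% interval -0.79 to -0.09), and it was called in none of 17 other settings (adjusted p from 0.0563, without wildtype replicate 2). PPARA had 35.5, 33.9 and 37.9 CPM in the knockout libraries and 37.0, 31.5 and 37.1 CPM in the wildtype libraries. The groups overlapped, with a log2 fold change of 0.02 (edgeR adjusted p = 0.933, SE 0.11, 95% interval -0.22 to 0.27). PPARD had 11.7, 11.9 and 11.0 CPM in the knockout libraries and 13.8, 11.8 and 14.5 CPM in the wildtype libraries, with a log2 fold change of -0.21 (edgeR adjusted p = 0.513, SE 0.15, 95% interval -0.53 to 0.11). Wildtype replicate 2 lay among the knockout libraries for PPARD.

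The balance between the receptors can be read within each library, where scaling has no part. PPARA took 61.5%, 58.8% and 59.0% of all counts on the 3 receptors in the knockout libraries, against 54.6%, 52.8% and 53.2% in the wildtype libraries. PPARG took 18.3%, 20.6% and 23.8% in the knockout libraries, against 24.9%, 27.4% and 26.02% in wildtype. For both genes the groups did not overlap, while PPARD, with a mean of 19.3% in the knockout and 20.3% in wildtype, did. The groups did not overlap in 20.8% of single tested genes in either direction, and no such background was worked out for shares or ratios. The shares also depend on each other, since a lower share of PPARG raises the others. The level of PPARA itself had a log2 fold change of 0.02 (edgeR adjusted p = 0.933). The log2 ratio of PPARA to PPARD counts averaged 1.63 ± 0.14 in the knockout and 1.40 ± 0.04 in wildtype (SD, n = 3 each), without overlap. Shares and ratio are of counts without correction for transcript length, so they compare the genotypes and do not rank the receptors. Per kb PPARG was the highest of the receptors. Neither the shares nor the ratio were tested.

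**Figure D2:**
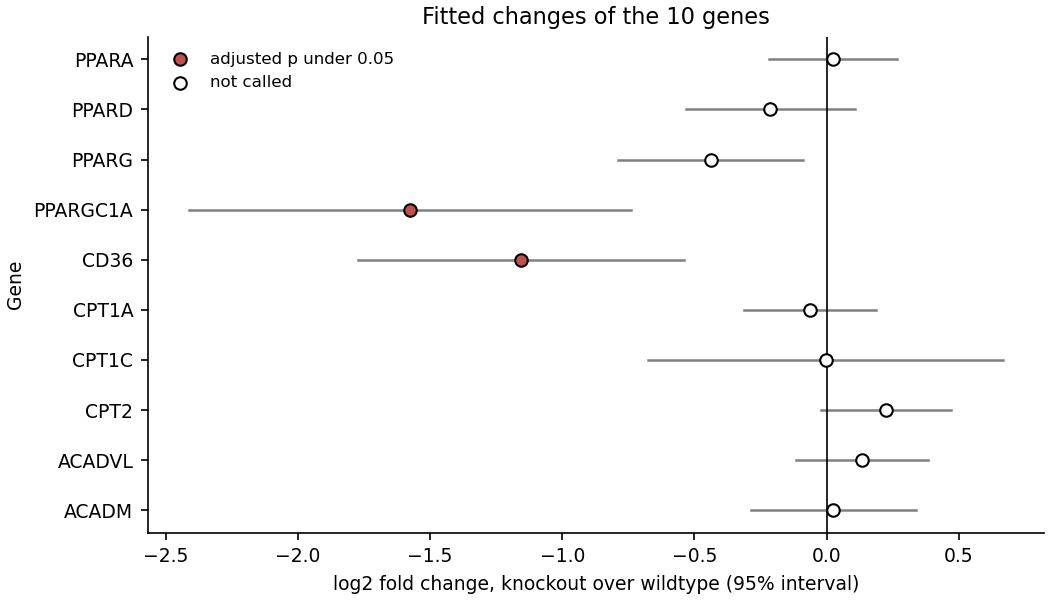
Log2 fold change, knockout over wildtype, of the 10 genes with 95% intervals, filled where the adjusted p was under 0.05. The intervals of PPARGC1A (-2.41 to -0.74) and CD36 (-1.77 to -0.54) lay below 0 and those genes were called, while that of PPARG (-0.79 to -0.09) lay below 0 with an adjusted p of 0.179.

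A broad list of 20 partners and coregulators of the PPARs left out PPARGC1A, which fell. The list also held ESRRA, NRF1, GABPA and TFAM, transcription factors tied to mitochondrial genes rather than PPAR coregulators. Of its 19 tested genes 1 rose and none fell, where 1.51% of all tested genes were called higher. It was NRIP1, also known as RIP140, a corepressor of nuclear receptors. NRIP1 had 30.2, 34.7 and 25.9 CPM in the knockout libraries and 18.4, 16.3 and 17.8 CPM in the wildtype libraries. The lowest knockout library was above the highest wildtype library. NRIP1 rose to 30.3 ± 4.42 CPM in the knockout, against 17.5 ± 1.08 CPM in wildtype (SD, n = 3 each; log2 fold change 0.79, edgeR adjusted p = 0.00571, SE 0.14), and it was called in all 17 other settings (adjusted p up to 0.0292). The other 18 ranged over log2 fold changes of -0.61 to 0.25, and 5 of the 19 had an unadjusted p under 0.05, against 16.5% of all tested genes. EP300, an acetyltransferase and coactivator, had 102, 110 and 88.5 CPM in the knockout libraries and 170, 98.5 and 190 CPM in the wildtype libraries. The log2 fold change was -0.61 (edgeR adjusted p = 0.178, SE 0.21). PPARGC1B, the close relative of PPARGC1A, had 45.7, 43.5 and 41.7 CPM in the knockout libraries and 64.3, 42.3 and 66.5 CPM in the wildtype libraries, with a log2 fold change of -0.40 (edgeR adjusted p = 0.209, SE 0.15). In both genes wildtype replicate 2 lay among the knockout libraries and the other 2 wildtype libraries lay above them. Without that library EP300 and PPARGC1B were called lower (edgeR adjusted p = 0.000194 and 0.000881), in a fit that called 22.1% of all tested genes. The RXR partner RXRA averaged 21.0 CPM in the knockout and 19.6 CPM in wildtype, and RXRB 22.3 CPM in the knockout and 21.7 CPM in wildtype, and neither was called.

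The list of PPAR target genes leaves out all 10 members, targets or not. CD36, a known target that fell, is described with fatty acid uptake. CPT1A, CPT2, ACADM and ACADVL, which were not called, are described further below. Of 25 known PPAR target genes outside the members 15 were tested, and edgeR called none. An unadjusted edgeR p under 0.05 was found in 1, against 16.5% of all tested genes. By the DESeq2 Wald test 1 was called, LPL. The median log2 fold change was -0.19 against -0.02 over all genes, and 13 of the 15 values were negative, as were 8937 of all 16954. The 10 untested genes had few or no counts. PDK4, a kinase that shuts down pyruvate oxidation, had 1 count in the knockout and 2 in wildtype over 3 libraries each, and FABP1 and FABP4 had none, which allows at most 3 counts a library, or 0.109 to 0.161 CPM. LPL, the lipase that frees fatty acids from lipoproteins, had 3.13, 1.38 and 3.64 CPM in the knockout libraries and 5.62, 6.02 and 4.98 CPM in the wildtype libraries. The groups did not overlap, with a log2 fold change of -1.03 (edgeR adjusted p = 0.105, SE 0.32), and LPL was called in 2 of 17 other settings, the DESeq2 Wald test (0.0285) and the fit with no filter (0.0272). FABP3, a fatty acid binding protein of muscle, had a log2 fold change of 0.51 (edgeR adjusted p = 0.433, SE 0.30). PLIN2, which coats lipid droplets and responds to PPARs in many cells, averaged 33.4 CPM in the knockout and 34.9 CPM in wildtype, and was not called.

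CD36, a scavenger receptor that takes up long-chain fatty acids, had 41, 47 and 71 counts in the knockout libraries and 158, 91 and 92 counts in the wildtype libraries. These were 2.10, 1.80 and 2.59 CPM in the knockout libraries and 6.21, 3.38 and 4.93 CPM in the wildtype libraries. The groups did not overlap, and the wildtype libraries were the more spread out, with replicate 2 lowest. CD36 fell to 2.16 ± 0.399 CPM in the knockout, against 4.84 ± 1.42 CPM in wildtype (SD, n = 3 each), or a log2 fold change of -1.16 (edgeR adjusted p = 0.0401, SE 0.28, 95% interval -1.77 to -0.54). The call was lost without knockout replicate 1, 2 or 3 (edgeR adjusted p = 0.142, 0.134 and 0.0997) and without wildtype replicate 1 or 3 (0.248 and 0.0666). It was also lost with upper-quartile scaling (0.0687), library size only (0.0812), limma voom (0.0753) and the length and GC correction (0.0546), and was kept without wildtype replicate 2 (0.00192). The log2 fold change stayed between -1.36 and -0.93 in all 17 other settings.

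Of 17 tested genes of fatty acid uptake and activation, CD36 was the 1 that was called, and the list's median was -0.11. Over all tested genes 4.46% were called. GOT2, a mitochondrial aminotransferase that was also described as a fatty acid binding protein of the cell surface, had 138, 170 and 153 CPM in the knockout libraries and 195, 227 and 177 CPM in the wildtype libraries. The log2 fold change was -0.38 (edgeR adjusted p = 0.171, SE 0.13). GOT2 lies on chromosome 16, whose genes had a median log2 fold change that differed by -0.17 from that of all genes. Whether this bears on GOT2 was not tested. SLC27A2, an acyl-CoA synthetase of very long chains, had a log2 fold change of -0.39 (edgeR adjusted p = 0.207, SE 0.15). The 10 members lie on chromosomes whose medians differed from that of all genes by -0.08 to 0.06. The genes tested next to CD36 in RefSeq order, MAGI2 and GNAI1 on one side and SEMA3C and CACNA2D1 on the other, had log2 fold changes of -0.13, -0.09, -0.47 and 0.13, and none was called. Those next to PPARGC1A, KCNIP4, ADGRA3, DHX15 and CCDC149, had log2 fold changes of -0.10, -0.04, 0.07 and 0.14, and none was called.

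**Figure D3:**
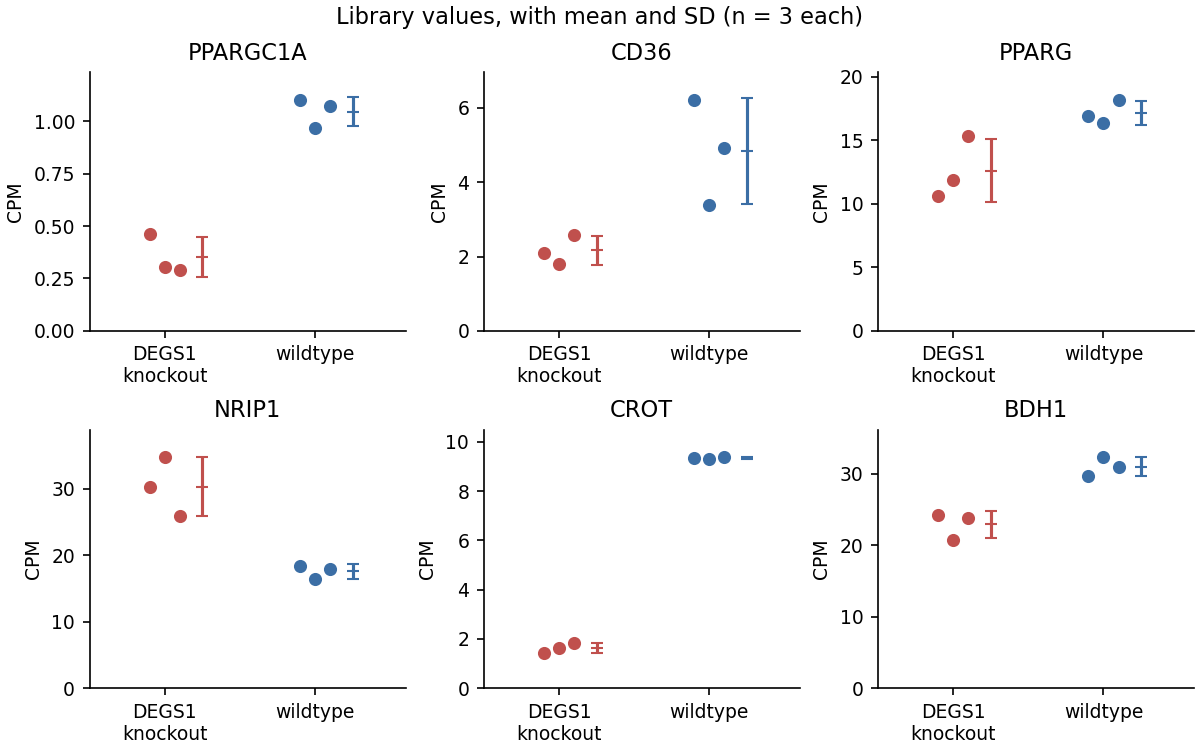
CPM in each library (points), with mean and SD of 3 libraries beside them, for 3 members (PPARGC1A, CD36, PPARG) and 3 other pathway genes (NRIP1, CROT, BDH1), all axes from 0. The 6 genes were chosen for display. The genotypes did not overlap in any of them, as in 20.8% of all tested genes in either direction, and NRIP1 alone of the 6 was higher in the knockout.

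The carnitine enzymes among the members did not pass. CPT1A, the malonyl-CoA-sensitive enzyme that controls entry into mitochondria, had 145, 148 and 132 CPM in the knockout libraries and 144, 160 and 139 CPM in the wildtype libraries. The groups overlapped, and the log2 fold change was -0.06 (edgeR adjusted p = 0.824, SE 0.11, 95% interval -0.31 to 0.19). CPT1C, the form known from neurons, which resides in the endoplasmic reticulum and has little transferase activity, had 3.85, 2.33 and 2.81 CPM in the knockout libraries and 2.79, 2.12 and 4.12 CPM in the wildtype libraries. With 57 to 77 counts a library its interval was wide (log2 fold change -0.003, edgeR adjusted p = 0.997, SE 0.31, 95% interval -0.67 to 0.67). The log2 ratio of CPT1C to CPT1A counts was -5.59 ± 0.38 in the knockout and -5.67 ± 0.58 in wildtype (SD, n = 3 each). CPT2, the inner membrane enzyme, had 56.5, 48.9 and 56.9 CPM in the knockout libraries and 45.0, 51.0 and 42.9 CPM in the wildtype libraries. Only wildtype replicate 2 reached the knockout range, and the log2 fold change was 0.22 (edgeR adjusted p = 0.354, SE 0.11, 95% interval -0.02 to 0.47). Without that library CPT2 was called higher (0.30, edgeR adjusted p = 0.0447), in a fit that called 22.1% of all tested genes.

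In 17 genes of the carnitine shuttle and its control by malonyl-CoA, 1 fell and none rose. Over all tested genes 2.95% were called lower. The 1 that fell was CROT, the peroxisomal transferase that hands medium-chain fatty acids to carnitine. CROT had 28, 43 and 50 counts in the knockout libraries and 238, 250 and 175 counts in the wildtype libraries, or 1.44, 1.64 and 1.82 CPM in the knockout and 9.36, 9.29 and 9.37 CPM in wildtype. The genotypes were far apart and each was tight. CROT fell to 1.63 ± 0.193 CPM in the knockout, against 9.34 ± 0.0467 CPM in wildtype (SD, n = 3 each), or a log2 fold change of -2.50 (edgeR adjusted p = 3.73e-05, SE 0.21), and its rank by p among all tested genes was 30. It was called in all 17 other settings (adjusted p up to 0.000813), with a log2 fold change of -2.59 to -2.41. RefSeq gives CROT an overlap with ABCB4, which had 8 counts in the knockout and 27 in wildtype, and reads of the 2 could not be told apart there unless the counting used strand. MLYCD, which breaks down malonyl-CoA, had 15.3, 15.6 and 15.5 CPM in the knockout libraries and 19.2, 18.7 and 21.9 CPM in the wildtype libraries, without overlap (log2 fold change -0.37, edgeR adjusted p = 0.157, SE 0.13). MLYCD lies on chromosome 16 as well, and any bearing of that was not tested. PRKAG1, a regulatory subunit of the AMP-activated kinase, had a log2 fold change of 0.30 (edgeR adjusted p = 0.173, SE 0.11), also without overlap.

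Neither acyl-CoA dehydrogenase among the members passed the test. ACADVL had 82.4, 68.3 and 82.6 CPM in the knockout libraries and 74.5, 65.3 and 73.0 CPM in the wildtype libraries (log2 fold change 0.13, edgeR adjusted p = 0.607, SE 0.11, 95% interval -0.12 to 0.38). ACADM had 67.6, 69.7 and 65.4 CPM in the knockout libraries and 59.4, 83.3 and 56.3 CPM in the wildtype libraries, where replicate 2 was the highest of all 6 libraries. The log2 fold change was 0.03 (edgeR adjusted p = 0.946, SE 0.14, 95% interval -0.29 to 0.34), and 0.23 without wildtype replicate 2 (edgeR adjusted p = 0.0762). The log2 ratio of ACADVL to ACADM counts averaged 0.20 ± 0.20 in the knockout and 0.12 ± 0.41 in wildtype (SD, n = 3 each), with overlap. RefSeq gives ACADVL an overlap with DLG4, and reads of the 2 could not be told apart there unless the counting used strand.

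Of 19 tested genes of mitochondrial beta-oxidation, ACADVL and ACADM included, none was called in edgeR's test and none in the DESeq2 Wald test. An unadjusted edgeR p under 0.05 was found in 2, against 16.5% of all tested genes. The list's median was 0.03, and 18 of the 19 lay between -0.23 and 0.36. The exception was ACADL, the long-chain dehydrogenase, with 1.23, 1.03 and 0.838 CPM in the knockout libraries and 3.11, 1.97 and 1.5 CPM in the wildtype libraries (log2 fold change -1.10, edgeR adjusted p = 0.116, SE 0.35). ECI2, an isomerase of unsaturated chains, had a log2 fold change of 0.30 (edgeR adjusted p = 0.287, SE 0.13). HADHA, a subunit of the trifunctional protein, averaged 165 CPM in the knockout and 186 CPM in wildtype and was not called.

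None of 15 tested genes of peroxisomal beta-oxidation was called by edgeR or by the DESeq2 Wald test, and none had an unadjusted edgeR p under 0.05. Their median was 0.02, and the 2 with the smallest p were the thiolase ACAA1 (log2 fold change -0.11, edgeR adjusted p = 0.621, SE 0.10) and the racemase AMACR (0.19, edgeR adjusted p = 0.635, SE 0.17). None of 7 tested genes of ketone body metabolism was called by either. An unadjusted edgeR p under 0.05 was found in 2, against 16.5% of all tested genes. BDH1, the mitochondrial hydroxybutyrate dehydrogenase, had 24.3, 20.7 and 23.8 CPM in the knockout libraries and 29.8, 32.4 and 31.0 CPM in the wildtype libraries, without overlap. The log2 fold change was -0.44 (edgeR adjusted p = 0.0583, SE 0.12), and it was called in 3 of 17 other settings. Its cytosolic namesake BDH2 had a log2 fold change of 0.33 (edgeR adjusted p = 0.267, SE 0.14).

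**Figure D4:**
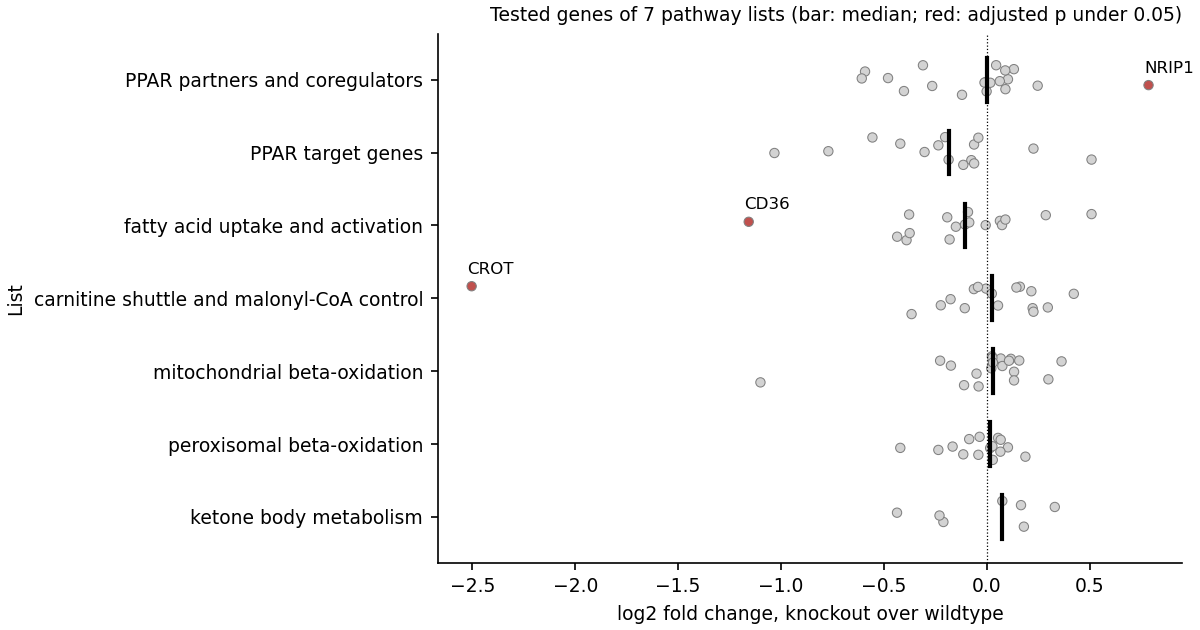
Log2 fold change, knockout over wildtype, of every tested gene in 7 pathway lists (points, spread at random within a row), with the list's median as a bar and called genes in red. The medians lay between -0.19 and 0.08, and NRIP1, CD36 and CROT were the called genes.

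Over the 7 lists together, 103 genes were tested, and 1 rose (NRIP1) and 2 fell (CROT and CD36), 2.91% against 4.46% of all genes. Without wildtype replicate 2 the lists had 22 called genes of 104, 11 higher and 11 lower. That share, 21.2%, stood beside 22.1% of all genes in the same fit. Without any other single library 2 were called, CROT and NRIP1.

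Genes most like the called members in their course over the 6 libraries were found by the mean absolute difference of log2 CPM, each gene centred on its own mean. A pattern shared with the member over these libraries follows from that choice. Nearest to PPARGC1A were the pseudogene C1GALT1P1 (0.0626), LRRC7 (0.105) and GLB1L3 (0.108). C1GALT1P1 had 9, 9 and 8 counts in the knockout libraries and 28, 23 and 21 counts in the wildtype libraries, nearly the counts of PPARGC1A, and as a pseudogene it could share reads with its parent gene. Nearest to CD36 were NID2, a basement membrane protein (0.0638), HLA-DOB (0.0702) and the pseudogene ANKRD18CP (0.115). NID2 lies on chromosome 14 (median -0.18 from that of all genes), and any bearing of that was not tested. It had 6.72, 5.74 and 7.91 CPM in the knockout libraries and 16.5, 10.3 and 15.9 CPM in the wildtype libraries. Replicate 2 was lowest in each genotype, as for CD36.

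**Figure D5:**
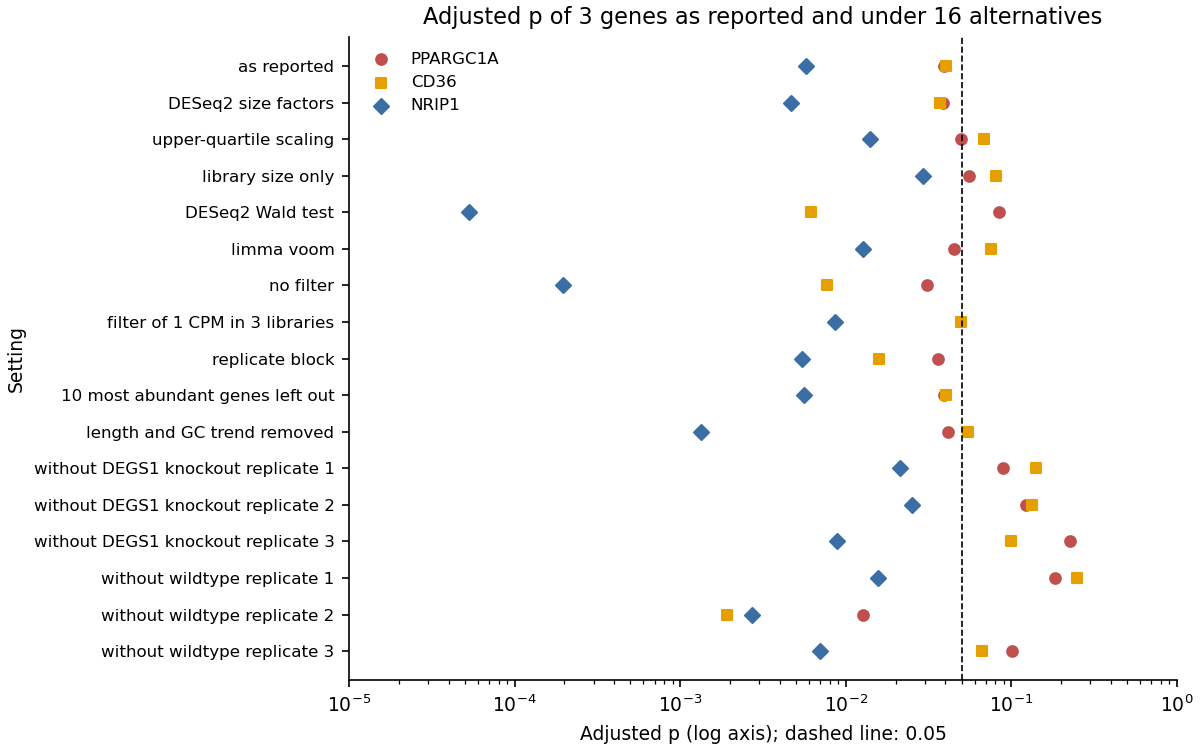
Adjusted p on a log axis of PPARGC1A, CD36 and NRIP1 as reported and under 16 alternative settings, with a dashed line at 0.05. NRIP1 stayed left of the line throughout (up to 0.0292), whereas PPARGC1A and CD36 lay on both sides of it, with their highest values at 0.226 and 0.248 when a library was left out.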

How the data were processed

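RNA was sequenced from 6 HAP1 libraries, prepared from 1 ug of total RNA with a stranded total RNA kit and read as single reads of 75 nt, per the labels' protocols. The authors deposited raw counts for each gene symbol. The build hg19 and bcl2fastq 2.20 are named, per the submitters' processing notes. Which aligner, counter, annotation and strand setting made them is not given in the sources used here. TMM scaling (trimmed mean of M values) and edgeR's filterByExpr were applied. Genotype was then fitted alone with edgeR 4.0.16 (quasi-likelihood F test, robust dispersion) in R 4.3.3, with Benjamini-Hochberg adjustment over all 16954 genes. SE was taken from the log2 fold change and F (its size divided by the root of F), and 95% intervals use the fit's degrees of freedom. Log2 CPM used a prior count of 2. A count of 3, the floor, was 0.109 to 0.161 CPM. Such floors, and the counting intervals, reflect counting error and nothing else. No same-genotype pair of libraries agreed within sampling noise (chi-square per degree of freedom 11.7 to 48.2). Libraries of the same replicate number in the 2 genotypes also share a code in the labels, whose meaning is not stated. Whether they were paired is not known, and genotype was fitted without the number.

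The 10 genes and the 7 lists were chosen with earlier results of these data known. Named are DEGS1, the members, the called genes and the 2 others with the smallest p in each list, 2 tested neighbours on each side of a called member and the 3 genes most like it. Further genes (PLIN2, RXRA, RXRB, HADHA, PDK4, FABP1, ADIPOQ, PCK1, the neighbours of CROT) were named after their values were seen. Other marker genes named in the text (BCR, ABL1, MPO, TAL1, RUNX1, HCLS1, GATA1, CD33, FABP4, CIDEA and RETN) also fall outside that rule. The marker lists for liver, muscle, blood and endothelial cells had summed levels of 2.26 to 3.39, 1.60 to 2.05, 5.50 to 6.72 and 4.16 to 4.59 CPM in the knockout, and of 2.23 to 4.87, 1.11 to 2.52, 4.68 to 8.09 and 3.12 to 5.20 CPM in wildtype. None of these markers was called. All 170 list and marker entries were matched by symbol. Transcript lengths were known for 94.1% of tested genes. DESeq2 1.42.0 and limma 3.58.1 served as alternatives. RefSeq tables of GRCh38.p14 gave gene order, overlaps and promoter sequence.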

Additional observations from a re-analysis of the deposited data

How the results depend on the processing

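Alternatives were other scalings, tests and filters, the replicate number as a block, removal of the length and GC trend, the 10 most abundant genes left out, a threshold of 0.01 and each library left out. Of the 10 members 2 were called. This became 1 with upper-quartile scaling, limma voom and the length and GC trend removed (PPARGC1A), and 1 with the DESeq2 Wald test and a filter of 1 CPM in 3 libraries (CD36), where PPARGC1A was not tested under that filter. It became 0 with library size only and at a threshold of 0.01, and 0 to 3 with 1 library left out. Over all genes 756 were called, 375 at a threshold of 0.01, and 380 to 3825 with 1 library left out. The lists had 3 called genes, and 2 to 22 with 1 library left out. All fits without a library have fewer samples. The fit without wildtype replicate 2 called 3825 genes and the other such fits 380 to 625, and the cause of these differences was not tested. DEGS1, CROT and NRIP1 were called in all 17 settings, and no called gene named here changed sign. With the replicate number as a block (replicate block) 1082 genes were called, PPARGC1A and CD36 among them (edgeR adjusted p = 0.0362 and 0.0159), along with CROT, NRIP1 and BDH1 (0.0473). The deviations of same-numbered libraries correlated at 0.215, 0.309 and -0.125, so 1 of 3 pairs fell short and the data do not settle whether the shared numbers and label codes mark a pairing, and 1 of 3 knockout libraries correlated best with its own number. Depth limits PPARGC1A most, at 8 to 28 counts a library.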

Other observations

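The genes next to CROT on chromosome 7 were looked at after its value was seen. In RefSeq order the 4 genes tested on one side were SEMA3D, KIAA1324L, DMTF1 and TMEM243, and the 4 on the other side were ABCB1, RUNDC3B, SLC25A40 and DBF4. ABCB1, the drug efflux pump also called P-glycoprotein, had 52, 139 and 96 counts in the knockout libraries and 478, 485 and 283 counts in the wildtype libraries. It fell to a mean of 3.83 CPM in the knockout, against 17.3 CPM in wildtype (log2 fold change -2.17, edgeR adjusted p = 0.000201, SE 0.23), and was called in all 17 other settings. RUNDC3B fell to 2.94 CPM in the knockout, against 6.21 CPM in wildtype (log2 fold change -1.07, edgeR adjusted p = 0.0133, SE 0.21). It lost its call at a threshold of 0.01 and in 3 fits with 1 library left out, those without knockout replicate 1 or 3 and without wildtype replicate 1 (edgeR adjusted p up to 0.0992). RefSeq gives RUNDC3B and ABCB1 an overlap, so their reads may not be fully separate. ABCB4, which lies between CROT and ABCB1, was too low to test, with 8 counts in the knockout and 27 in wildtype. The genes next outward on each side, TMEM243 (-0.16), DMTF1 (-0.09), SLC25A40 (-0.02) and DBF4 (0.16), were not called (log2 fold changes in parentheses). Farther out, SEMA3D rose to 10.1 CPM in the knockout, against 3.95 CPM in wildtype (log2 fold change 1.34, edgeR adjusted p = 0.0075, SE 0.24), and KIAA1324L had a log2 fold change of -0.95 (edgeR adjusted p = 0.0794). Chromosome 7 as a whole had a median within 0.01 of that of all genes (0.00364).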
